A study of Mus musculus with 42 samples.

Results

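The livers of 16 atorvastatin-treated mice were compared with one another to find which genes differed most between mice on 1 and the same treatment and which genes differed together. All libraries of the group labelled WTD with atorvastatin for 32 weeks were taken, 16 of 42 in the series, and genes with a mean of at least 20 CPM (read pairs on the gene for every 1000000 on all genes, with library sizes scaled by TMM, the trimmed mean of M values) were described. That left 6638 genes. Every mouse of this study was a female APOE*3-Leiden transgenic mouse, which carries a human APOE variant and develops raised plasma cholesterol on a fat- and cholesterol-rich diet. In the treated group, mice aged 8 to 14 weeks were put on a Western-type diet (WTD) that held 15% cocoa butter, 40.5% sucrose and 1% cholesterol. After 3 weeks of run-in on WTD alone, and for 32 weeks counted from then, these mice also received atorvastatin, a statin that lowers cholesterol synthesis, at 3.0 mg/kg/day and at 4.5 mg/kg/day from week 5. Cholate at 0.05% was added to the diet from week 22. Comparison groups were the 16 mice on the same WTD without atorvastatin and, for the size of the spread and the co-variation, 10 mice on chow. Each library was the bulk liver RNA of 1 mouse, so p-values measure the spread between animals.

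Hepatocytes make cholesterol through a chain of enzymes that includes squalene epoxidase (Sqle). When sterols in the endoplasmic reticulum run low, the transcription factor SREBP2 is released and raises the genes of the chain, while its relative SREBP1c raises fatty acid synthesis. Scarring of the liver is carried by collagens such as Col1a1 from activated stellate cells, and clock genes such as Dbp rise and fall over the day. In bulk liver RNA, fewer cells of a type and less RNA per cell cannot be told apart.

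The libraries held between 15908421 and 34464242 counts on genes, with a median of 18180048.5. Of 1187 genes at 1 to 2 CPM on average, the share without any read was 20.13% in the mouse with the label Gen#29, 12.38% in Gen#28 and 11.37% in Gen#32, and at most 1.85% in the other 13 mice. The libraries of Gen#29, Gen#28 and Gen#32 were also the largest of the 16, at 27471550, 31679397 and 34464242 counts. The cause was not tested. Several of the counts below are also given without Gen#28 or without these 3 libraries together. The labelled sex was checked: Xist was at 299.3 to 367.6 CPM in all 16 libraries and the Y-linked genes Ddx3y, Kdm5d, Eif2s3y and Uty had 0 reads. The labelled tissue was checked with hepatocyte transcripts, and albumin (Alb) ranged from 46450 to 101300 CPM. None of the marker genes examined for neutrophils, T and NK cells, adipocytes, skeletal muscle or pancreatic acinar cells reached a mean of 20 CPM.

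Most genes differed little between the treated mice. On the scale log2(CPM + 1), on which 1 unit is a doubling for all but weak genes, the median standard deviation (SD) over the 16 mice was 0.203, with quartiles of 0.16 and 0.27, and 3185 of 6638 genes had an SD under 0.2. The steadiest gene was the ribosomal protein gene Rpl6, which had an SD of 0.058 and lay between 358.1 and 409.5 CPM in every mouse. Ewsr1, an RNA-binding protein, and Ap2m1, a subunit of the clathrin adaptor, followed with an SD of 0.0586 and 0.0636. Prkar1a, a regulatory subunit of protein kinase A, and Mboat7, which acylates lysophospholipids, had an SD of 0.0641 and 0.0649.

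At the other end, 31 genes had an SD of at least 1. Cyp3a16, a cytochrome P450 at chr5:145436309-145469723 (GRCm38), had 0 reads in Gen#28, a median of 24.3 CPM and a highest value of 168.6 CPM, with an SD of 2.09. Sult2a3, a sulfotransferase of steroids and bile acids, had 0 reads in Gen#28, a median of 15.54 CPM and a highest value of 94.79 CPM, with an SD of 1.95. Cyp3a41a (chr5:145694049-145720136) had 1 read in Gen#28, equal to 0.02827 CPM, against a median of 61.39 CPM and a highest value of 241.2 CPM. Gen#28 was thus the lowest mouse for each of these 3 genes, and it alone made 64.4% of the sum of squares of Cyp3a41a. Among all 31 genes, Gen#28 was the mouse farthest from the mean for 16 and Gen#25 for 5.

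Other genes of this set also ran over a wide range, and Dbp did so without resting on 1 mouse. Dbp, a clock-driven transcription factor, ran from 8.237 CPM through a median of 57.32 CPM to 198.5 CPM, and its farthest mouse made 16.7% of the squares. Sult2a1 ran from 16.05 CPM in Gen#25 through 139.7 CPM to 337.8 CPM, and Cyp2c69 from 15.01 CPM through 187.6 CPM to 460.3 CPM. Pnpla3, a lipid droplet protein that SREBP1c raises, ran from 6.671 through 35 to 120.8 CPM. Mup20, a major urinary protein, ran from 32.3 through 92.95 to 450.5 CPM. Cyp8b1, the sterol 12-alpha-hydroxylase of bile acid synthesis, ran from 13.14 CPM in Gen#28 through 118.7 CPM to 294.2 CPM. Unlike Dbp, Cmss1 owed 56.9% of its squares to Gen#37, which had 2343 CPM against a median of 153.8 CPM. Acpp, A1bg, Chrna4, Gm49513, Ly6d, Acot3, Gm26561, Upp2 and Cux2 were also among the 20 genes of largest spread, with an SD between 1.12 and 1.41. The genes just below an SD of 1 were Adcy1 at 0.9955 and Cyp2c40 at 0.993, and the last above it was Thrsp at 1.02.

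**Figure D1:**
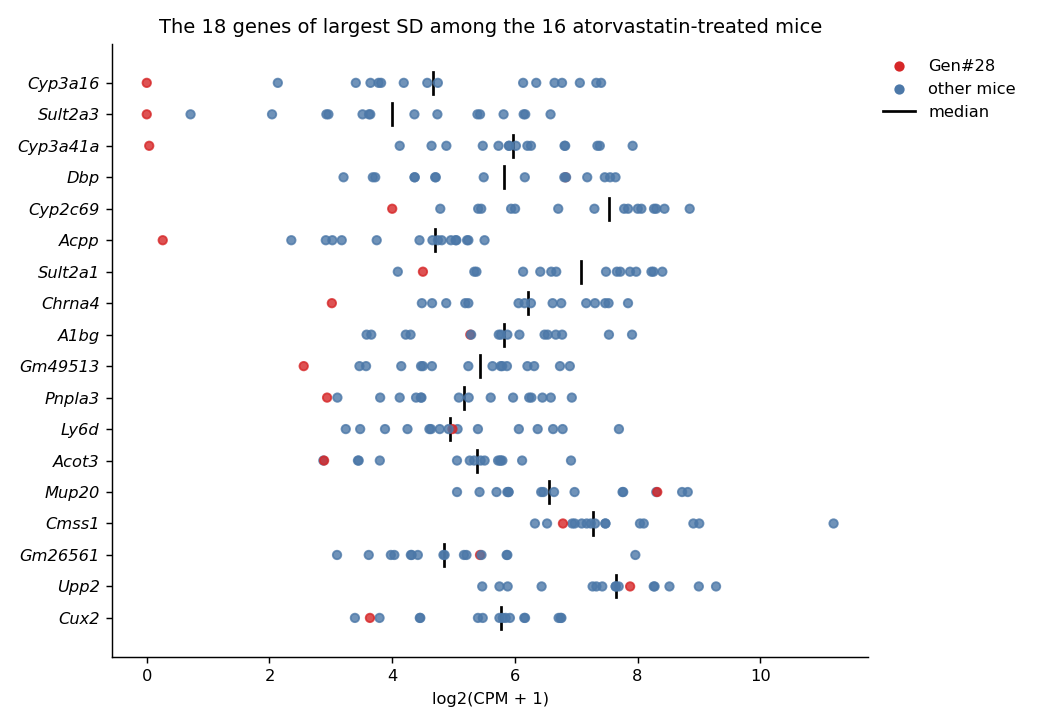
Level of the 18 genes with the largest SD, 1 point per treated mouse (n = 16), on the x axis as log2(CPM + 1), with the median as a black bar and Gen#28 in red. Gen#28 is at or near 0 for Cyp3a16, Sult2a3 and Cyp3a41a, whereas Dbp and Sult2a1 spread over the mice without a single extreme and Cmss1 has 1 mouse, Gen#37, far above the others.

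Cyp3a41a and its neighbour Cyp3a41b are shown by sequence because they are nearly identical neighbours, of which one was a reference gene and the other stood among the most variable genes. Of the stretches of 75 bases in the GENCODE vM21 transcript of Cyp3a41a, 91.1% occur unchanged in that of Cyp3a41b. In the RefSeq promoter table of GRCm38.p6, their 250 bases before the gene start are identical at 249 positions (99.6%). The 120 bases next to the start of each are printed 5′ to 3′ for the minus strand, from chr5:145720137-145720256 and chr5:145584731-145584850, with the only differing base in capitals.
Cyp3a41a: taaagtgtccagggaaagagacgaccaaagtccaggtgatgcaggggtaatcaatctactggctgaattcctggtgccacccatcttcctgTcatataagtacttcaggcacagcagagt
Cyp3a41b: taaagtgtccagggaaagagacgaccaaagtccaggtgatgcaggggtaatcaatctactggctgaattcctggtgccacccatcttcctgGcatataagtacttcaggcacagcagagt
Pairs with several alignments were left out of the counts, so the levels of both genes are uncertain. The same holds for close copies such as the Sult2a, Cyp2c and Saa genes, for which the shared stretches were not measured. Cyp3a41b had 0 reads in Gen#28, a median of 4.49 CPM and a highest value of 62.98 CPM, and with a mean of 14 CPM it lay below the limit of 20 CPM.

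The spread itself was compared with that of mice on WTD alone. The median SD was 0.252 on WTD and 0.265 on chow, and 15 and 45 of the same genes had an SD of at least 1. The SD was larger in treated than in WTD-fed mice for 2147 genes and smaller for 4491. A limma test on the absolute deviations from the group medians called 0 of 6638 genes (0%) at an adjusted p under 0.01, with a smallest adjusted p of 0.539 and 489 genes at an unadjusted p under 0.05, of which 143 spread more under treatment. Simulated data showed that this test finds little, since it called 3% of genes given a 3-fold and 5% of genes given a 6-fold SD. A difference in spread was thus not detectable at this number of mice.

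Sqle, the enzyme that makes squalene epoxide (chr15:59315077-59331192, ENSMUSG00000022351.14), was used as the first reference gene. It was at 6.812 CPM in Gen#28, at a median of 37.73 CPM and at 64.17 CPM in Gen#35. Gen#28 made 52.2% of its sum of squares. For every other gene, edgeR's quasi-likelihood test gave the slope on log2(CPM + 1) of Sqle, which is the log2 change of a gene where Sqle is 1 unit higher. Genes with a Benjamini-Hochberg adjusted p under 0.01 over all 12806 genes tested were called, here and below. Of 6637 genes at 20 CPM or more, 235 were called (3.54%), 182 with a positive (2.74%) and 53 with a negative slope (0.799%).

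Genes of cholesterol synthesis and of fatty acid synthesis were high in the mice with high Sqle. Hmgcs1, the HMG-CoA synthase of the early pathway, was at 102 CPM in Gen#28, at a median of 247.3 CPM and at 333.5 CPM in Gen#32. Thrsp, a regulator of lipogenesis, was at 61.68 CPM in Gen#28, at a median of 305.1 CPM and at 735.4 CPM in Gen#29. Fasn, the fatty acid synthase, was at 303.9 CPM in Gen#28, at a median of 1861 CPM and at 4500 CPM in Gen#26. For each of the 3 genes Gen#28 was the lowest mouse, as it was for Sqle. Thrsp had the smallest p, with a slope of 1.23 ± 0.10 (SE) and an adjusted p of 8.211e-07 by edgeR. Hmgcs1 had a slope of 0.55 ± 0.057 with an adjusted p of 9.979e-06, and Fasn a slope of 1.17 ± 0.13 with an adjusted p of 3.363e-05.

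Correlations over the 16 mice gave the same order of strength. Pearson's r with Sqle was 0.95 for Thrsp, 0.94 for Hmgcs1 and 0.92 for Fasn, each with an adjusted permutation p of 0.0062, and Spearman's rho was 0.88, 0.88 and 0.81 with adjusted permutation p of 0.013, 0.013 and 0.023. Without Gen#28 and Gen#36, the mice farthest from the median of Sqle, r was 0.92, 0.88 and 0.75. The other leading genes were Rdh11, a retinol dehydrogenase raised by SREBP2 (slope 0.79), Dhcr7, which carries out the last step of cholesterol synthesis (0.49), Mvd, the mevalonate diphosphate decarboxylase (1.04), the water channel Aqp8 (0.77) and Acacb, an acetyl-CoA carboxylase (0.98). Their r lay between 0.91 and 0.93. These 5 and the 3 above were called whichever 1 of the 16 mice was left out.

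By list, 12 of 16 cholesterol synthesis genes were called, all with a positive slope, against 2.74% of all genes. Their median slope was 0.51 and their median r 0.84, beside 0.018 and 0.072 over all genes. Fdft1 and Lss were among the 4 not called. Of 8 other SREBP2 targets, 5 were called with a positive slope, among them Rdh11, Aacs and Insig1 (slope 0.81), but 2 with normal scores of Sqle, values set by rank alone, and 3 with technical covariates (log2 total count and share of undetected weak genes). Of 17 lipogenic genes, 12 were called with a positive slope, with a median slope of 0.76, but 3 with normal scores. Srebf1, which encodes SREBP1, was not called at a slope of 0.40 (edgeR adjusted p 0.01051). Among 15 genes of bile acid synthesis and transport, Cyp8b1, Slc10a1 and Akr1d1 were called with a positive slope.

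Much of the count rested on Gen#28. Without it, 26 genes were called, 23 positive and 3 negative, with 6 cholesterol synthesis genes, 1 other SREBP2 target and 7 lipogenic genes among them. Without Gen#30, the count was 417. Without the libraries Gen#28, Gen#29 and Gen#32 together, a setting chosen after seeing the data, 7 genes were called, with 4 genes of cholesterol synthesis, 1 other SREBP2 target and 1 lipogenic gene among them. With Col1a1 as a covariate, likewise added after seeing the data, 48 were called. The split of calls moved to 80 positive and 85 negative calls (48.5% positive against 77.4%) where libraries were scaled by their total count alone. The TMM factor itself moved with Sqle, with an r of -0.69 (adjusted permutation p 0.0138; rho -0.71, adjusted p 0.021; -0.71 without the farthest 2 mice).

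The negative slopes were led by Noct, Nupr1, Zbtb18, Tgfbr1 and Wdr43. Noct, a phosphatase of NADP(H) with a daily rhythm (chr3:51224447-51251644), was at 10.46 CPM in Gen#30, at a median of 21.72 CPM and at 248.7 CPM in Gen#28, where the next mouse was Gen#25 at 40.43 CPM. Nupr1, a stress-induced nuclear protein, ran from 9.134 through a median of 21.21 to 85.34 CPM, again highest in Gen#28. The slope of Noct was -1.21 ± 0.13 with an edgeR adjusted p of 5.676e-05. Its r was -0.84 (adjusted permutation p 0.021) and its rho -0.65 (0.093), and r was -0.53 without the farthest 2 mice. None of these 5 genes was called without Gen#28, while all 5 were called when any other mouse was left out.

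**Figure D2:**
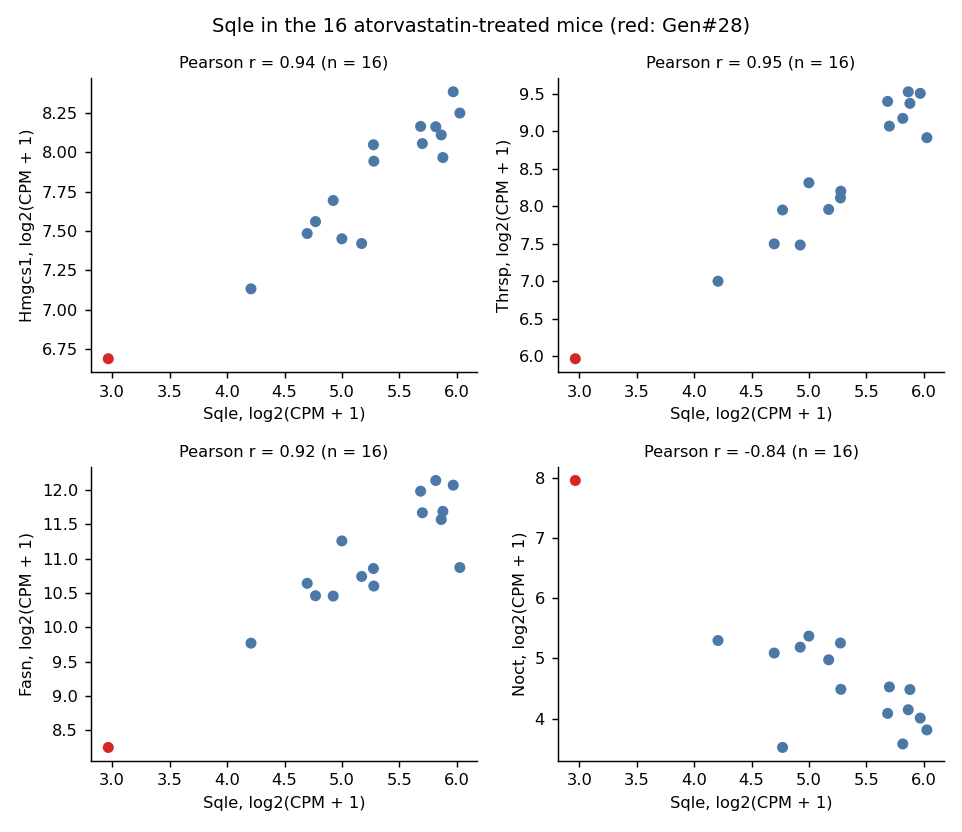
Hmgcs1, Thrsp, Fasn and Noct on the y axes against Sqle on the x axis, each as log2(CPM + 1), with 1 point per treated mouse (n = 16) and Gen#28 in red. The first 3 genes rise with Sqle over all mice (r 0.94, 0.95 and 0.92), while the high Noct value of 248.7 CPM belongs to Gen#28.

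Promoter windows are shown for Hmgcs1 and Mvd because they hold 2 kinds of letters that SREBP2 target promoters are known for, a sterol regulatory element (searched as TCACNCCAC) and the CCAAT box to which the cofactor NF-Y binds (CCAAT). The 250 bases before the gene start are given 5′ to 3′ on the gene's strand, from RefSeq on GRCm38.p6. The window of Hmgcs1 is chr13:119690101-119690350 (plus strand) and that of Mvd chr8:122443423-122443672 (minus strand). Capitals mark the sterol element of Hmgcs1, 137 bases before the start, and the CCAAT letters of Mvd, 60 and 27 bases before the start, the first of them on the opposite strand.
Hmgcs1: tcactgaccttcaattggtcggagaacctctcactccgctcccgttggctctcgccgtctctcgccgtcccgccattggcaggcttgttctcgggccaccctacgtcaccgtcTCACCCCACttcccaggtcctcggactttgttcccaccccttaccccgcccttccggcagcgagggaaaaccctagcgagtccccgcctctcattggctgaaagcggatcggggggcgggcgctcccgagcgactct
Mvd: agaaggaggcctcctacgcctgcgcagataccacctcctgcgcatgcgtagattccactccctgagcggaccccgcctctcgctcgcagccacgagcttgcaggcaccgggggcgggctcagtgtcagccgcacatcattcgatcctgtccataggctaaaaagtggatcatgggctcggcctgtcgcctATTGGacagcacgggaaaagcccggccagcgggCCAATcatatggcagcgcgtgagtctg
Both strands of the 250 bases before each start were searched, and neither motif contains the other. A gene was counted once if any of its windows held the letters. TCACNCCAC was found for 7 of 143 genes with a positive slope on Sqle (4.9%) and for 1 of 13 cholesterol synthesis genes. It was found for 1.6% of genes at 20 CPM or more and 1.22% of all 27025 genes with a window, and in 1.05% of the 32851 single windows. CCAAT was found for 12 of 13 cholesterol synthesis genes (92.3%), 11 of 15 lipogenesis genes (73.3%) and 53.8% of genes with a positive slope on Sqle. It was found for 40.3% of genes at 20 CPM or more and 37.5% of all genes with a window, and in 33.8% of single windows. Such a match is a description of letters and not a site of binding.

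Col1a1, the alpha-1 chain of type I collagen (chr11:94936224-94953042, ENSMUSG00000001506.10), was at 95.38 CPM in Gen#30, at a median of 180.6 CPM and at 574.8 CPM in Gen#25. It had the widest set of followers: 1090 of 6637 genes were called (16.4%), 405 with a positive (6.1%) and 685 with a negative slope (10.3%). Mice with more Col1a1 had more of other matrix genes and of macrophage genes and less of many hepatocyte genes. Its partner chain Col1a2 ran from 99.09 through 165.6 to 426 CPM, and the lowest and highest mice were again Gen#30 and Gen#25. Its slope was 0.78 ± 0.040 with an edgeR adjusted p of 4.919e-12. Pearson's r of Col1a2 with Col1a1 was 0.99 and rho 0.98, with adjusted permutation p of 0.00099 and 0.0011, and r was 0.99 without Gen#25 and Gen#22.

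Col3a1, the fibrillar collagen type III, ran from 198.5 through 296.5 to 758.2 CPM, with a slope of 0.67 and an r of 0.96. Ltbp2, a matrix protein related to the TGF-beta binding proteins, ran from 8.523 through 14.64 to 43.85 CPM, with a slope of 1.11 and an r of 0.94. Gpnmb, a glycoprotein of macrophages laden with lipid, ran from 106.8 through 207.3 to 439.3 CPM, with a slope of 0.82 and an r of 0.94. Gen#30 was the lowest and Gen#25 the highest mouse for Col3a1 and Gpnmb, as for Col1a1. The other leading positive genes were the collagens Col5a2 (slope 0.77) and Col4a1 (0.53), the proteoglycan lumican (Lum, 0.73) and Ccdc80, a matrix protein (0.60). Among negative slopes, Hsd11b1, which regenerates active glucocorticoid, ran from 229.8 CPM in Gen#25 through 491.5 to 635.9 CPM in Gen#30, with a slope of -0.59 and an r of -0.96. Cyp2c29, a cytochrome P450, ran from 338.9 CPM in Gen#25 through 606 to 977.3 CPM in Gen#30, with a slope of -0.61 and an r of -0.93. Rdh16f2 (-0.68), the sulfotransferase Sult1a1 (-0.46) and Nrn1 (-0.42) completed the 13 leading genes, and all 13 were called whichever 1 mouse was left out.

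By list, 17 of 22 extracellular matrix genes were called with a positive slope, against 6.1% of all genes, and their median slope was 0.44 beside -0.017 over all genes. Col5a1, Fn1, Dcn, Postn and Col14a1 were not. Of 16 macrophage genes 8 were called, all positive, including the lysosomal marker Cd68 (slope 0.39), Lyz2 and the class II genes H2-Aa and H2-Eb1, and 5 were called with technical covariates. Of 12 genes of lipid-associated macrophages 9 were called, all positive, including Trem2 (0.53), Spp1 (0.51) and Gpnmb, while 0 of 4 Kupffer cell genes were. Over the mice the summed level of the 16 macrophage genes ran from 2067 to 3769 CPM and that of the 12 lipid-associated genes from 2094 to 3677 CPM. Of 8 genes listed for cholangiocytes, only the keratin genes Krt8 (0.43) and Krt18 (0.37) reached 20 CPM, and both were called. The rest of that list, such as Krt7, Krt19 and Epcam, lay below 20 CPM, so these calls do not show a change of that cell type. Of 9 stellate cell genes, Vim, Pdgfrb and Pdgfra were called with a positive and Ecm1 with a negative slope. Of 11 genes of the unfolded protein response, 6 were called with a positive slope, among them the chaperone Hspa5. That count was 1 without Gen#28 and also without Gen#28, Gen#29 and Gen#32, 0 without the farthest 2 mice, and 3 under upper-quartile scaling, limma-trend, no filter or normal scores of Col1a1.

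Hepatocyte markers lay on the negative side, where 10.3% of all genes were called. Of 9 hepatocyte markers 6 were called, all negative, with albumin at a slope of -0.41 and apolipoprotein Apoa2 at -0.47. Of 14 female-biased liver genes 9 were called, all negative, led in size by Acot3 (-1.49), Sult2a1 (-1.36) and the transcription factor Cux2 (-1.28). The count of 9 was 3 without the farthest 2 mice, 4 without Gen#28, Gen#29 and Gen#32 and 4 with normal scores of Col1a1. Acot3 ran from 6.353 CPM in Gen#25 through 40.94 CPM to 119.7 CPM in Gen#35. Of 17 cholesterol synthesis genes 10 were called, all negative, with a median slope of -0.45, and 6 with normal scores. Of 15 bile acid genes 9 were called, all negative. Among 8 proteins encoded by mitochondrial DNA 5 were called, all negative.

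The direction of the Col1a1 relation at the level of all genes depended on the scaling. The TMM factor followed Col1a1 over the 16 mice with r 0.91 (adjusted permutation p 0.00015), rho 0.85 (0.0015) and r 0.89 without the farthest 2 mice. Scaled by total counts alone, a setting added after seeing the data, 1887 genes were called, 1595 positive and 292 negative, or 84.5% positive against 37.2%, and the median slope of all genes moved by 0.12 to 0.103. Under total counts 19 matrix, 15 macrophage and 11 lipid-associated macrophage genes were called positive, and 4 hepatocyte, 8 female-biased and 8 cholesterol synthesis genes negative, whereas the mitochondrially encoded proteins had 0 calls. Without Gen#25 and Gen#22, 565 genes were called, 236 positive and 329 negative.

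**Figure D3:**
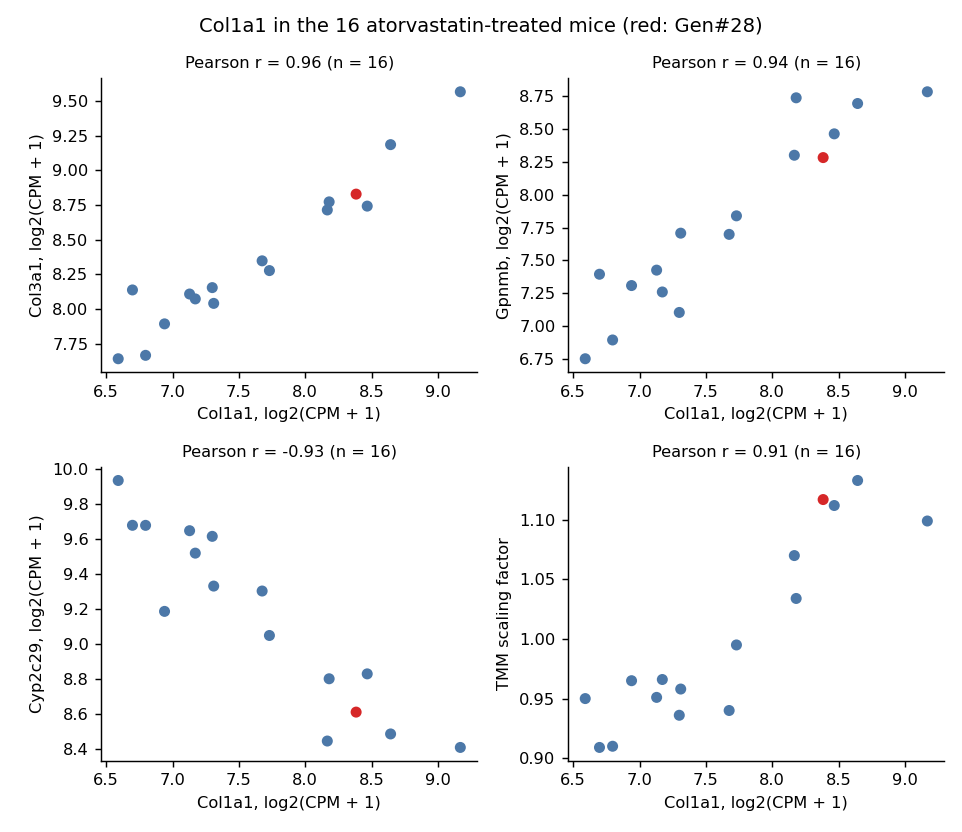
Col3a1, Gpnmb, Cyp2c29 and the TMM scaling factor of the library on the y axes against Col1a1 on the x axis, with genes as log2(CPM + 1), 1 point per treated mouse (n = 16) and Gen#28 in red. Col3a1 and Gpnmb rise and Cyp2c29 falls along Col1a1 (r 0.96, 0.94 and -0.93), and the TMM factor rises with it too (r 0.91).

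Dbp (chr7:45705088-45710203, ENSMUSG00000059824.12) gave a smaller set. Of 6637 genes 92 were called (1.39%), 67 positive (1.01%) and 25 negative (0.377%). Tef, a transcription factor of the same PAR bZIP family, was at 34.13 CPM in Gen#22, at a median of 79.35 CPM and at 167.2 CPM in Gen#29. Nr1d1, the nuclear receptor REV-ERB alpha, ran from 59.47 through 161 to 299.1 CPM. Arntl (BMAL1), the activator at the opposite phase of the clock, ran from 4.579 CPM in Gen#28 through 20.62 to 52.54 CPM in Gen#32. The mice high in Dbp were high in Tef and Nr1d1 and low in Arntl. Slopes were 0.47 ± 0.031 for Tef (edgeR adjusted p 8.44e-09), 0.43 ± 0.051 for Nr1d1 (6.782e-05) and -0.64 ± 0.11 for Arntl (0.003414).

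For these genes, r with Dbp was 0.97, 0.90 and -0.85, with adjusted permutation p of 0.0075, 0.0075 and 0.021, and rho was 0.96, 0.89 and -0.78 with adjusted permutation p of 0.008, 0.012 and 0.053. Without Gen#22 and Gen#24, r was 0.96, 0.86 and -0.90. Of 12 clock genes 6 were called, Tef, Nr1d1, Nr1d2 (slope 0.25), Cry2 (0.23) and Hlf (0.23) with a positive slope, against 1.01% of all genes, and Arntl with a negative one, against 0.377%. Arntl was not called with technical covariates, with normal scores of Dbp, without Gen#29, without Gen#35 or without Gen#28, Gen#29 and Gen#32. The repressor Nfil3, which ran from 15.29 through 28 to 56.21 CPM, had a slope of -0.26 (edgeR adjusted p 0.04426), Per1 0.32 (0.05673) and Per2 0.08 (0.4878). Bhlhe40 and Clock were not called either. Further leading genes were Gstt2, a glutathione transferase (0.40), Tns2 (0.24), Fbxo21 (0.29), the liver glycogen synthase Gys2 (0.26) and Bnip3, a mitophagy receptor (0.24). Leading negative genes were Chka, the choline kinase (-0.32), the lactate transporter Slc16a1 (-0.24), Ddc (-0.24), Mical2 (-0.25) and the tubulin Tubb2a (-0.41). All 13 leading genes were called whichever 1 mouse was left out. Ppara, the receptor for fatty acids, was called as well with a slope of 0.31 (0.001632).

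The count moved with single mice. It was 21 without Gen#35, 45 without Gen#25, 49 without Gen#27, 53 without Gen#22, 56 without Gen#24, 57 without Gen#29 and 159 without Gen#28. Clock gene calls fell to 3 without Gen#29 or Gen#35. Scaled by total counts, 60 genes were called, 26 positive and 34 negative (43.3% positive against 72.8%).

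**Figure D4:**
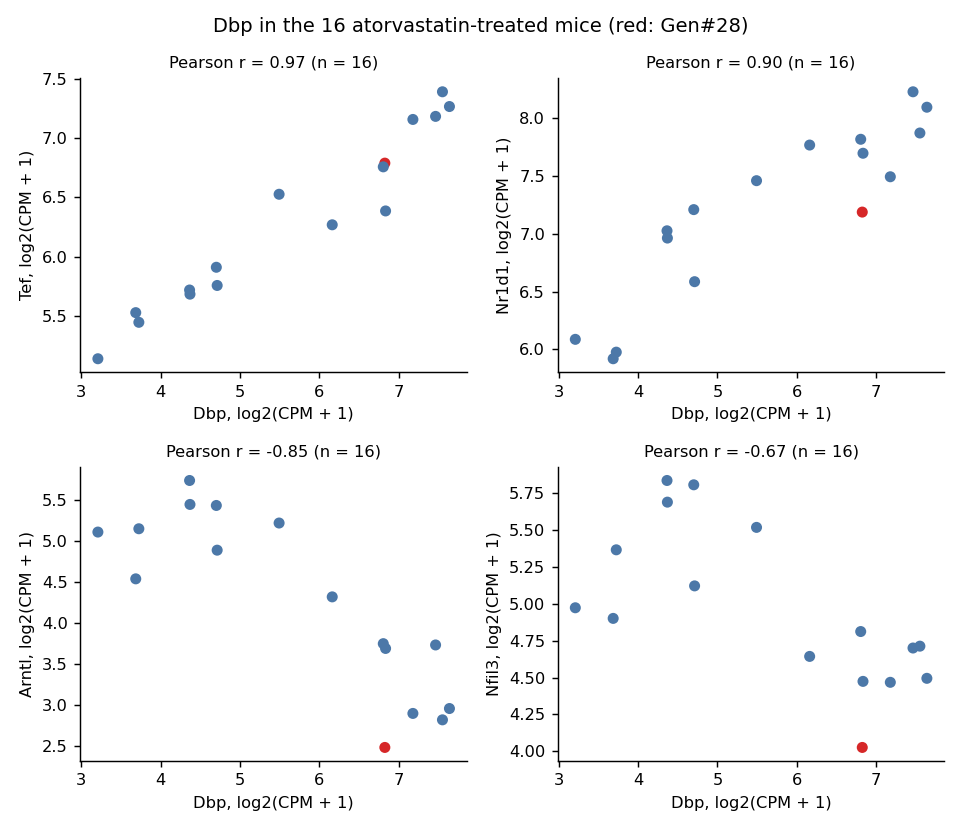
Tef, Nr1d1, Arntl and Nfil3 on the y axes against Dbp on the x axis, each as log2(CPM + 1), with 1 point per treated mouse (n = 16) and Gen#28 in red. Tef and Nr1d1 rise with Dbp (r 0.97 and 0.90) and Arntl falls (r -0.85), while Nfil3, which was not called, has its lowest value of 15.29 CPM in Gen#28.

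Windows of a gene that followed Dbp upward and of a gene that followed it downward are shown because each holds an E-box (CACGTG, its own reverse complement), the letters to which the clock activators bind. The 250 bases before an annotated start are given 5′ to 3′ for Tef (chr15:81811164-81811413, plus strand) and Slc16a1 (chr3:104638414-104638663, plus strand), from RefSeq on GRCm38.p6. The window of Tef lies inside the gene (chr15:81802421-81826863), before an internal start, and was picked because it holds the E-box. The capitals mark the E-box, 138 bases before that start in Tef and 200 bases before the start in Slc16a1.
Tef: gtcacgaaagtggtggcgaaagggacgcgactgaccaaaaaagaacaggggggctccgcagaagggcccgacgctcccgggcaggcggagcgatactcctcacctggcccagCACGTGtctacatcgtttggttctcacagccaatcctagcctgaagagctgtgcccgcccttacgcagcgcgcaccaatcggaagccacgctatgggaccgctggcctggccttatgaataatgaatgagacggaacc
Slc16a1: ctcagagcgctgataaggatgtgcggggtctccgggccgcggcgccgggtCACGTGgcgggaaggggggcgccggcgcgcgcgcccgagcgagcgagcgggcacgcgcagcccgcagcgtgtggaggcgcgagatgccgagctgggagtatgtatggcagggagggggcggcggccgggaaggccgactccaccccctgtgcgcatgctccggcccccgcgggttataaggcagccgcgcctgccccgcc
Counting a gene once if any of its windows matched, 8 of 52 genes with a positive slope on Dbp had the letters (15.4%). So did 5 of 19 with a negative slope (26.3%) and 2 of 10 clock genes. The share was 10.6% of genes at 20 CPM or more, 6.86% of all genes with a window and 6.02% of single windows. The letters were thus not limited to genes of 1 direction.

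Saa2, an acute phase protein (chr7:46751790-46754313), was at 48.63 CPM at the lowest, at a median of 83.52 CPM and at 218.4 CPM in Gen#23. Only 2 genes followed it (0.0301%), with 671 at an unadjusted p under 0.05. Saa1, its close copy, ran from 74.71 through 119 to 296 CPM, with a slope of 0.95 ± 0.081 and an edgeR adjusted p of 1.633e-06. Its r of 0.95 had an adjusted permutation p of 0.13. Permutation p-values cannot go below 1e-05 before adjustment over the 12806 genes tested. A gene that reaches this limit alone cannot pass after adjustment, so the permutation test does not decide on the r of Saa1. Orm2, an orosomucoid, ran from 23.25 through 46.21 to 263.7 CPM in Gen#23, with a slope of 1.37 ± 0.16 (edgeR adjusted p 0.0003764). It was not called without Gen#23, and its r of 0.85 was 0.50 without Gen#23 and Gen#26. The other 20 of 22 acute phase genes at 20 CPM or more were not called.

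No gene was called for Cyp3a41b by edgeR (0%), with 1212 genes at an unadjusted p under 0.05, 0 by limma-trend and 55 by DESeq2. Cyp3a16 had the slope 1.01 ± 0.17 (edgeR adjusted p 0.067) and Cyp3a41a 0.71 ± 0.15 (0.10), with r 0.90 and 0.83 (adjusted permutation p 0.026 for both). Without Gen#28, 1 gene was called. With Cyp3a41a as the reference in its place, chosen after seeing the data, 42 genes were called (0.633%), 32 positive and 10 negative. Cyp3a16 (slope 1.482 ± 0.18, edgeR adjusted p 0.001263) was among them, with Nupr1 (-0.35), Paqr9 (0.24) and Clec4f (0.24). Clec4f is 1 of 4 Kupffer cell genes at 20 CPM or more, and the median r between pairs of them was 0.142 in treated mice. Its call alone does not show a change of that cell type. The set of 42 genes rests on a reference gene of which Gen#28 made 64.4% of the squares.

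The 5 reference genes were compared in their 10 pairs, and none passed an adjusted permutation p of 0.05. Sqle and Col1a1 had r -0.56 (adjusted p 0.098) and rho -0.59 (0.12), with r -0.57 without the farthest 2 mice. Sqle and Cyp3a41b had r 0.63 (0.083) and rho 0.56 (0.12), with r 0.47 without those mice. Sqle and Dbp had r 0.0029 and Cyp3a41b and Dbp r -0.010, both with an adjusted p of 0.99.

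Without any reference gene, the 300 genes of largest SD were clustered by their correlation over the treated mice, which gave 8 groups of at least 5 genes with 258 genes in all. The groups were made from these values, so their coherence in the treated mice is a description, and the same r in WTD-fed and chow-fed mice, which took no part, is given beside it. Over all 300 genes the median r between pairs of genes was 0.155 in treated, 0.0796 in WTD-fed and 0.0153 in chow-fed mice. The first group held 134 of the 6638 genes, with Sc5d, Rdh16, Akr1d1, Car5a, Pdk1 and Ecm1 at its centre. In it were 9 of 17 cholesterol synthesis, 13 of 17 lipogenic and 11 of 14 female-biased genes. Only genes of large SD could enter, and the median SD of these lists was 0.48, 0.67 and 0.99, beside 0.203 over all genes. Its median r was 0.753, against 0.417 on WTD and 0.17 on chow, and it was highest in Gen#35 and lowest in Gen#28. The second held 58 genes around Uap1l1, Abcc4, Anxa2, Ltbp2, Lum and Ccdc80, highest in Gen#25 and lowest in Gen#35, with median r of 0.751, 0.509 and 0.218. These groups ran against each other, with a median r of -0.7 between their genes.

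The third group, 19 genes around Ppara, Gstt2, Nr1d1, Upp2, Rnf152 and Cyp4a32, and the fourth, 14 genes around Arntl, Tubb2a, Ppp1r3b, Slc30a10, Adcy1 and Nfil3, also opposed each other (-0.522). Their median r was 0.774 and 0.738 in treated mice, 0.542 and 0.524 on WTD, and 0.219 and 0.54 on chow. The fifth held 10 genes including Rarres1, Dio1 and Urad, with r 0.654 in treated, 0.23 in WTD-fed and 0.0746 in chow-fed mice. Its mean z-score (each gene's distance from its mean in SDs) was -2.568 in Gen#28, and r was 0.386 without that mouse. The sixth held Sds, Hal, Gls2, Slc3a1, Hamp, Abcg8, Etnppl, Hsd17b6 and Tmem256. Sds, the serine dehydratase, ran from 90.41 through 209.9 to 370.1 CPM, and the histidase Hal from 122.4 through 303.6 to 449.7 CPM. The group was highest in Gen#28, with r 0.747 in treated, 0.428 in WTD-fed and 0.257 in chow-fed mice. It held 4 of 10 periportal genes, beside 9 of all 6638 genes. The seventh held Lars2, Gm23935, Gm42418, Cmss1, Cdk8, Gphn, Peak1 and Gm26561 with the tightest r of all groups, 0.938 in treated, 0.819 in WTD-fed and 0.602 in chow-fed mice. It was highest in Gen#37, where Lars2, a mitochondrial leucyl-tRNA synthetase, was at 937 CPM against a median of 90.92 CPM, and Gm42418 at 5057 CPM against 788.4 CPM. Without Gen#37 the r of the seventh group was 0.828. Whether its reads come from the named genes themselves was not tested. The eighth held 6 genes including Aacs, Acot11, Rnd2, Fam198a and Nt5e, with r 0.832 in treated, 0.366 in WTD-fed and 0.179 in chow-fed mice. It was lowest in Gen#28 at a mean z-score of -2.833. Without that mouse its r was 0.658. For the other 6 groups r lay between 0.725 and 0.936 without Gen#28.

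**Figure D5:**
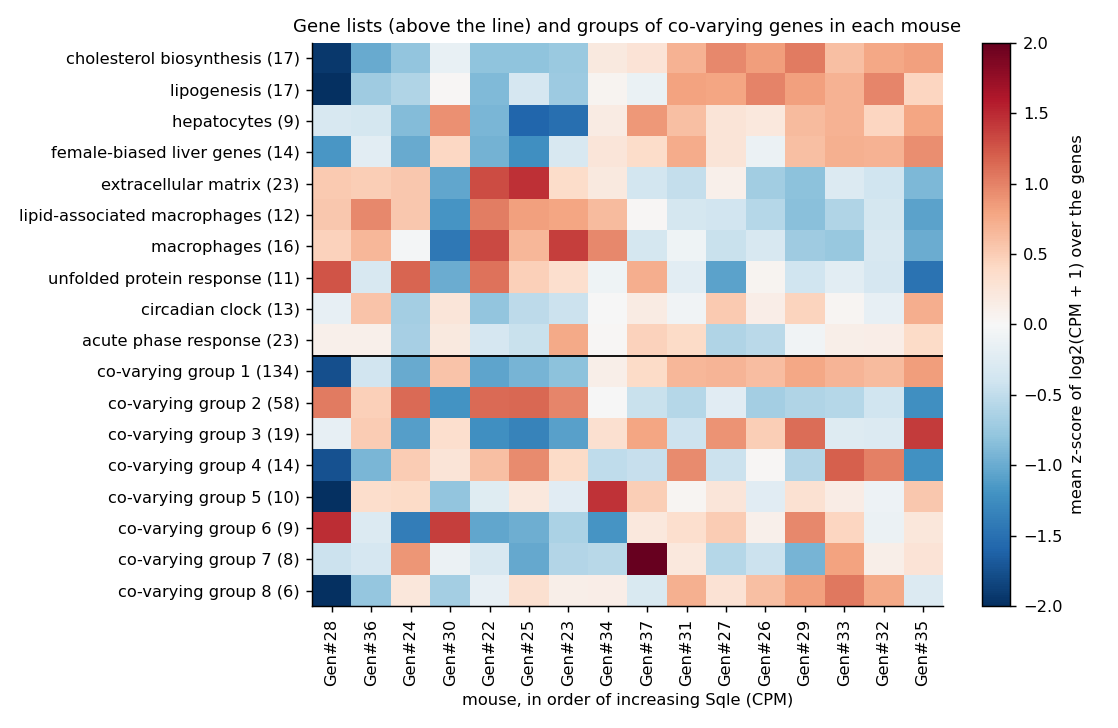
Mean z-score of log2(CPM + 1) over the genes of 10 lists (above the line) and of the 8 co-varying groups (below it), 1 column per treated mouse in order of increasing Sqle, with the number of genes in parentheses and colours capped at 2 either way. Cholesterol synthesis, lipogenesis and group 1 are mostly low on the left and high on the right, matrix genes and group 2 mostly run the other way, and group 7 stands out in Gen#37. Gen#30, on the left with Sqle at 26.28 CPM, departs from this. Its mean z-score is 0.023 for lipogenesis, 0.573 for group 1, -1.038 for matrix genes and -1.194 for group 2.

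Lists written from known functions were coherent to very different degrees. The median r between pairs of genes was 0.838 for cholesterol synthesis in treated mice, against 0.518 on WTD and 0.547 on chow, and 0.83 for lipogenesis, against 0.657 and 0.462. Matrix genes (0.736, 0.719 and 0.223), lipid-associated macrophage genes (0.753, 0.752 and 0.0611) and macrophage genes (0.689, 0.634 and 0.169) were coherent in both groups on WTD and less so on chow. Periportal hepatocyte genes were coherent in every group (0.824, 0.78 and 0.639). Acute phase genes were not (0.11, 0.232 and 0.382). Over all genes at 20 CPM or more the value was 0.011, 0.0174 and 0.00677. Differences between groups in these values were not tested. Without Gen#28 the value was 0.818 for cholesterol synthesis and 0.777 for lipogenesis, and without Gen#28, Gen#29 and Gen#32 it was 0.806 and 0.75.

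The slopes were then set beside those fitted in the 16 WTD-fed mice, which are other animals. Of the 235 genes called for Sqle, 180 had the same sign there (76.6%, beside 55.1% of all genes at 20 CPM or more), and 0 genes were called in WTD-fed mice (0%). Of the 1090 called for Col1a1, 1013 had the same sign (92.9%, beside 68.6%) and 236 were also called, which is 21.7% of the treated and 78.9% of the 299 calls on WTD (4.51%). Of the 92 called for Dbp, 91 had the same sign (98.9%, beside 66.1%) and 24 were also called, 26.1% of the treated and 55.8% of the 43 calls on WTD (0.648%). Of the 2 called for Saa2, both had the same sign (100%, beside 65.9%) and 1 was also called, which is 50% of the treated and 1.2% of the 83 calls on WTD (1.25%). The difference of slopes itself was tested by edgeR with an interaction term, which for Sqle recovered 95% of simulated differences of 1, and recovery was not simulated for the other 4 reference genes. It called 0 genes for Col1a1, Dbp, Saa2 and Cyp3a41b (0%), with 670, 344, 604 and 743 genes at an unadjusted p under 0.05. For Sqle it called 1 gene (0.0151%), Noct, with a slope of -1.21 in treated and 0.46 in WTD-fed mice and an edgeR adjusted p of 0.0042. Without Gen#28 the adjusted p of this difference was 0.232 and 0 genes were called.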

How the data were processed

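The authors prepared strand-specific libraries from polyadenylated liver RNA, used STAR 2.5 for alignment to GRCm38 and HTSeq 0.6.1p1 for counting. The deposited unit is the count, a whole number per gene and mouse, which the authors left without normalization. Trimmomatic and DESeq2 also stand in the submitters' processing notes. The lines for pairs in no gene (1.998% to 2.681% of pairs per treated library), ambiguous pairs (5.435% to 6.056%) and pairs with several alignments (4.407% to 5.11%) were left out of library sizes and tests. Of 54446 genes, 54409 were found in the GENCODE vM21 annotation, which gave symbols and positions.

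Genes that passed filterByExpr (minimum count 10, minimum total 15) or a mean of 20 CPM were tested, 12807 in all, with edgeR 4.0.16, limma 3.58.1 and R 4.3.3 under TMM scaling. The reference gene's log2(CPM + 1), with a pseudocount of 1, was a continuous term in a robust quasi-likelihood fit on the 16 treated libraries, without covariates since no batch is given. The fit of slope differences added the 16 WTD libraries and a group term. Two-sided permutation p-values used 100000 resamples, were adjusted over all tested genes and cannot go below 1e-05 before adjustment. Clustering used average linkage on 1 minus r, with a limit of 0.4.

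Named are the reference genes, the 20 genes of largest and the 5 of smallest SD, the 8 positive and 5 negative genes of smallest p per reference gene, the central members of each group, called slope differences and members of the gene lists. Members, reference genes and lists were chosen with earlier results of these data known. Adcy1 and Cyp2c40, just under an SD of 1, were named after their values were seen. In simulated data, 88% of genes with a slope of 0.5 on Sqle and 99% with a slope of 1 were called, with 1 false call among 6437 genes. Here and in the other simulations each gene was drawn independently of the rest. The rates thus do not cover data in which the scaling factor or 1 mouse moves many genes together, as seen for Sqle. Figures came from matplotlib 3.10.9 and correlations from scipy 1.17.1 under Python 3.11.15. Alternatives were DESeq2 1.42.0, limma-trend, other scalings, filters, thresholds and covariates, and leaving out mice. Technical covariates were the log2 total count and the share of undetected weak genes, normal scores replaced the reference gene's values by their ranks, and the farthest mice are those farthest from the median of the reference gene. Plasma and histology values were not analysed here. Some genes that the rule takes were left out of the text.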

Additional observations from a re-analysis of the deposited data

Results flagged for a closer look

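The slope of Noct on Sqle differed between treated and WTD-fed mice by -1.67 on the log2 scale (edgeR interaction term, adjusted p 0.0042), with a slope of -1.21 in treated and 0.46 in WTD-fed mice. The adjusted p was 0.0053 under RLE scaling and 0.0111 with technical covariates. Without Gen#28, the mouse with the highest Noct and the lowest Sqle, the difference was -1.26 with an adjusted p of 0.232. The part of this mouse's other properties in the result was not tested.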

How the results depend on the processing

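Counts of called genes moved by more than 1.5 times as follows, and the cause was not tested. For Sqle (235), DESeq2 called 580, a threshold of 0.05 gave 835, normal scores of Sqle 65, Col1a1 as a covariate 48, leaving out the 2 farthest mice 19, and leaving out Gen#28, Gen#29 and Gen#32 gave 7, with 26 (without Gen#28) to 417 (without Gen#30) over single mice. For the slope difference on Sqle (1), a threshold of 0.05 gave 11, and technical covariates or leaving out Gen#28 gave 0. For Col1a1 (1090), total counts alone gave 1887, a threshold of 0.05 gave 1755 and leaving out the 2 farthest mice 565, with 767 to 1114 over single mice. For Dbp (92), DESeq2 gave 217, a threshold of 0.05 gave 227, total counts 60 and leaving out the 2 farthest mice 33, with 21 (without Gen#35) to 159 (without Gen#28) over single mice. For Saa2 (2), DESeq2 gave 4, limma-trend, normal scores and technical covariates 1, and leaving out the 2 farthest mice 0, with 1 to 2 over single mice. For Cyp3a41b (0), DESeq2 gave 55, Cyp3a41a in its place 42, the same with Col1a1 as a covariate 40, and leaving out the 3 libraries named above 1, with 0 to 1 over single mice. Clustering 500 genes gave 16 groups in place of 8. The r of Cyp3a41b and Saa2 went from 0.0086 to -0.00475 without the farthest 2 mice. Of 901 alternatives over 58 pairs of a named and a reference gene, 842 kept direction and side of the threshold. In 28 the gene became called, in 31 it lost the call and in 0 it turned direction. The genes counted for Cyp3a41b, and those for Saa2 other than Saa1 and Orm2, were not called in the main fit and so could not lose a call. Under the threshold of 0.05 no called gene could lose its call either. For Sqle, 7 genes lost the call and 6 kept it without the 2 farthest mice. Without Gen#28, Gen#29 and Gen#32, 8 lost it and 5 kept it. The covariate, the total count scaling, the 3-library setting, the r within groups and lists without libraries, and Cyp3a41a were chosen after seeing the data. No paired analysis was possible because every comparison within the treated group uses 1 library per mouse and no label ties a treated mouse to a WTD-fed one.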

Other observations

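Other gene lists also differed in how far their members moved together over the treated mice. The 76 cytosolic ribosomal protein genes at 20 CPM or more had a median r between pairs of 0.703, against 0.724 in WTD-fed and 0.655 in chow-fed mice. The 14 targets of PPAR alpha, the nuclear receptor of fatty acid oxidation, had 0.627, 0.413 and 0.612, and the 6 heat shock genes 0.618, 0.391 and 0.316. The 8 proteins encoded by mitochondrial DNA had 0.618, 0.835 and 0.545. The 12 targets of the xenobiotic receptors CAR and PXR had 0.11, 0.383 and 0.274, and the 14 interferon response genes 0.384, 0.216 and 0.222. These values are descriptions over 16, 16 and 10 mice, and no difference between groups was tested. Here too the members were kept by their mean CPM in the treated mice alone.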
